A study of Arabidopsis thaliana with 12 samples.

Results

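The PIF, HY5 and shade response genes examined here are 10 genes that couple light quality to seedling growth. They are the PHYTOCHROME INTERACTING FACTOR genes PIF4, PIF5 and PIF7, the bZIP genes HY5 and HYH, the shade response genes ATHB2, HFR1 and PIL1, and the early light-induced protein genes ELIP1 and ELIP2. They were taken by their locus identifiers from a table of 31837 gene records, and every one of the 10 was found. Of the 10, 9 had a mean of at least 1 FPKM over the genotypes (a transcript level in sequenced fragments, corrected for transcript length and library size), as 17649 of the 31837 records did, and PIL1 lay below it.

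Transcripts of whole 14-day-old Arabidopsis thaliana seedlings grown under long days were measured by RNA sequencing in 12 libraries. All plants were of the Col-0 ecotype (CoL-0 in the labels), and the genotypes were brm-1 brd1,2,13 (called the combined mutant below), brm-1, brd1,2,13 and the wild type (WT), with 3 libraries each. BRM is the SWI2/SNF2-type ATPase of a chromatin remodelling complex, and BRD1, BRD2 and BRD13 are bromodomain subunits of the complexes that contain BRM. The brd1,2,13 mutant is mutated in the 3 BRD genes, whose alleles are not given in the sources used here, and no genotype other than WT was free of a mutation in this complex. The combined mutant therefore shares its BRM mutation with brm-1 and its BRD mutations with brd1,2,13, so the 4 genotypes form a factorial design in which each effect can be read in 2 backgrounds.

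The deposited table holds 1 level per gene and genotype and none per library. No spread between libraries can therefore be given beside any value below, no difference was tested, and the depth of the libraries is unknown. Comparisons are log2 ratios of (FPKM + 0.1), which slightly understate the difference of low genes, and a gene is counted as higher or lower where its levels differ by at least 2-fold. Each such count is read against the share of all 17649 records that lay equally far apart, since that share is what the same rule gives for genes at large. The 3 comparisons with WT share the WT value. In whole seedlings, fewer cells of a type and less RNA per cell cannot be told apart.

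The mutated genes, which check the labels, had low levels where their genotypes say so. BRM was at 0.12 FPKM in the combined mutant, 0.0954 in brm-1 and 18.5 in brd1,2,13, against 17.5 FPKM in WT, though its locus overlaps another record. BRD13 was at 0.0194 FPKM in the combined mutant, 18.7 in brm-1 and 0.223 in brd1,2,13, against 14.4 FPKM in WT. BRD1 and BRD2 transcripts were lower without being near 0, with BRD1 at 4.76, 15.7 and 4.36 FPKM and BRD2 at 3.08, 22.5 and 3.05 FPKM in the same order of mutants, against 12.7 and 7.04 FPKM in WT. Leaf mesophyll markers were plentiful in the seedlings of every genotype, with none of 8 at 0. Their summed level was 48766 FPKM in the combined mutant, 50475 in brm-1 and 52403 in brd1,2,13, against 55388 FPKM in WT. The 8 root markers, of the Casparian strip and root hairs, were also all above 0, and their sum was 53.6 FPKM in the combined mutant, 61.9 in brm-1 and 60.7 in brd1,2,13, against 94.3 FPKM in WT. Root marker levels thus moved in the same direction in the 3 mutants, and the part of tissue make-up in the results below was not tested.

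PIFs are basic helix-loop-helix (bHLH) transcription factors that drive elongation in darkness, shade and warmth. Photoactivated phytochrome B binds them and leads to their phosphorylation and, for most of them, degradation. HY5 acts against them: it is a bZIP factor that promotes photomorphogenesis and pigment formation, and the COP1/SPA ubiquitin ligase removes it in darkness. PIFs and HY5 can bind the same DNA element, the G-box, in the promoters of light-regulated genes. Low red to far-red light, as under a canopy, releases PIF7 and the other PIFs from this control and induces ATHB2, PIL1 and HFR1, while ELIP genes are induced by strong light and UV-B with the help of HY5.

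Upstream sequences are shown for the 3 members that lay past 2-fold in any comparison, ELIP1, ELIP2 and PIF7, because the G-box is an element through which PIFs and HY5 act. Each is the 250 bases before the gene's start in the RefSeq annotation of TAIR10.1, written 5′ to 3′ on the gene's strand, with a G-box in capitals. The ELIP1 window is chr3:8085670-8085919 on the minus strand, the ELIP2 window chr4:8417992-8418241 on the plus strand, and the PIF7 window chr5:24640766-24641015 on the minus strand, partly inside the deposited PIF7 locus because the gene starts of the annotations differ. For ELIP1 and ELIP2 the RefSeq start lies upstream of the deposited locus. All windows and distances are relative to the RefSeq starts and depend on that annotation.
ELIP1: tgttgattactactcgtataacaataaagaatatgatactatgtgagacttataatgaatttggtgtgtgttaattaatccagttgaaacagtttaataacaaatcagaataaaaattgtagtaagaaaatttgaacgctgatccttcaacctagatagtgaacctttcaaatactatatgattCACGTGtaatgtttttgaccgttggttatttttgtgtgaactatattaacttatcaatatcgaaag
ELIP2: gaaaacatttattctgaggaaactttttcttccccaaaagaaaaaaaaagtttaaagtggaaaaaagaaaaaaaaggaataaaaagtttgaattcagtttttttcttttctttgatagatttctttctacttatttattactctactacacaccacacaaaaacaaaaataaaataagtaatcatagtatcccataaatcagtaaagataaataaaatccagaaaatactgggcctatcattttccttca
PIF7: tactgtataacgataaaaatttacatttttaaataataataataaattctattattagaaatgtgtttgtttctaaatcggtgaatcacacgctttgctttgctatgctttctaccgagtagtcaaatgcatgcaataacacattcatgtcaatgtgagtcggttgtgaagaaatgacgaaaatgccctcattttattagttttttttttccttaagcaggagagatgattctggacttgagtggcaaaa

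The G-box (CACGTG, its own reverse complement) was present in the ELIP1 window, beginning 66 bases before the start, and in neither the ELIP2 nor the PIF7 window. Among the other 7 members it was found in the PIF5 window, 165 bases before the start. Of 27561 coding genes 6.46% held it in a window of this length, against 2 of the 10 members. The PIF-binding E-box (CACATG, or CATGTG on the other strand) was found in the HY5 window alone among the members, at 138 bases before the start, against 11.1% of coding genes. A C/G-box (GACGTG or CACGTC), another sequence bound by HY5, was found in no member's window, against 5.88% of coding genes. The C/G-box differs from the G-box in its first or last letter, so no site counts as both, and a match says only that the letters are there.

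The levels of the 10 genes spanned more than 2 orders of magnitude on the FPKM scale. In WT the order was ELIP2, ELIP1, PIF5, HYH, PIF4, PIF7, HY5, ATHB2, HFR1 and PIL1, and without a spread it cannot be said which neighbours in this order differ. ELIP2 and ELIP1 stood above 96.8% and 95.4% of the expressed records in WT, and HFR1 above 30.2% of them.

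**Figure D1:**
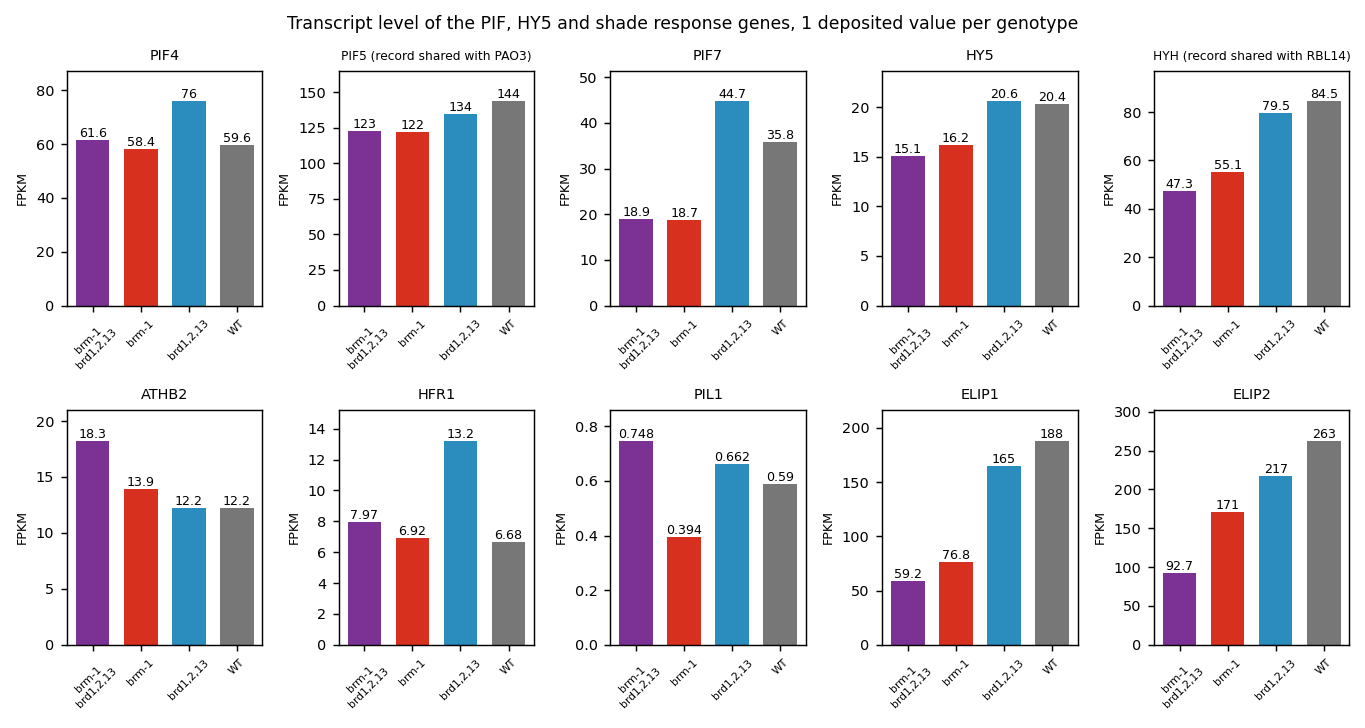
Bars give the FPKM level of each of the 10 genes, with 1 deposited value per genotype and no error bar because no value per library was at hand. The bars of the combined mutant and of brm-1 stand below both others for PIF5, PIF7, HY5, HYH, ELIP1 and ELIP2, HFR1 is highest in brd1,2,13 (13.2 FPKM), and ATHB2 is highest in the combined mutant (18.3 FPKM).

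The PIF genes differed in their patterns. PIF4 (AT2G43010, TAIR10 chr2:17886121-17889054), which promotes hypocotyl elongation in shade and warmth, was at 61.6 FPKM in the combined mutant, 58.4 in brm-1 and 76.0 in brd1,2,13, against 59.6 FPKM in WT. Only brd1,2,13 stood apart, 1.28-fold above WT (log2 ratio 0.35), and PIF4 was 0.30 lower on the log2 scale in the combined mutant than in brd1,2,13. PIF5 (AT3G59060, named PIL6 in RefSeq), a close relative of PIF4 that also promotes elongation, shares its record (chr3:21824694-21830858) with the polyamine oxidase gene PAO3 (AT3G59050), so its values are those of both genes joined. That record was at 123 FPKM in the combined mutant, 122 in brm-1 and 134 in brd1,2,13, against 144 FPKM in WT. Its largest log2 ratio to WT was -0.23, in brm-1.

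PIF7 (AT5G61270), which is dephosphorylated in shade and then activates auxin synthesis genes, was the PIF gene with the largest differences. It was at 18.9 FPKM in the combined mutant, 18.7 in brm-1 and 44.7 in brd1,2,13, against 35.8 FPKM in WT. The level was low wherever BRM was mutated, whether or not the BRD genes were, and somewhat above WT where the BRD genes alone were. PIF7 was 1.89-fold lower in the combined mutant than in WT (log2 ratio -0.92) and 1.91-fold lower in brm-1 than in WT (-0.93), just short of 2-fold. In brm-1, 5.53% of expressed records were at least as far below WT. Against brd1,2,13 the combined mutant was 2.36-fold lower (log2 ratio -1.24), while against brm-1 it differed by 0.02. The record of AT5G61260 has the same locus as that of PIF7 (chr5:24636341-24640857) and was listed at 0.62 FPKM in the combined mutant, 0.677 in brm-1 and 1.34 in brd1,2,13, against 0.97 FPKM in WT. Reads shared by these records cannot be told apart.

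HY5 and HYH were both lower where BRM was mutated, by less than 2-fold. HY5 (AT5G11260, chr5:3593380-3594992) was at 15.1 FPKM in the combined mutant, 16.2 in brm-1 and 20.6 in brd1,2,13, against 20.4 FPKM in WT, which are log2 ratios to WT of -0.43, -0.33 and 0.02. HYH (AT3G17609), the HY5 homolog that acts beside it, shares its record (chr3:6023723-6027694) with the rhomboid-like gene RBL14 (AT3G17611). The joined record was at 47.3 FPKM in the combined mutant, 55.1 in brm-1 and 79.5 in brd1,2,13, against 84.5 FPKM in WT. It was 1.78-fold lower in the combined mutant than in WT and 1.53-fold lower in brm-1 than in WT (log2 ratios -0.83 and -0.62), and brd1,2,13 lay 0.09 below WT on the log2 scale. In each BRM-mutant genotype HYH thus lay farther below WT than HY5, though it is not known which of the joined genes carries the difference. The coding sequences of HY5 and HYH were identical at 66.5% of 430 aligned bases, with no identical stretch of their transcripts longer than 17 bases.

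The shade response genes showed another order of genotypes. ATHB2 (AT4G16780, chr4:9449114-9450743, HB-2 in RefSeq), a class II HD-ZIP factor that promotes elongation and is induced within minutes of shade, was at 18.3 FPKM in the combined mutant, 13.9 in brm-1 and 12.2 in brd1,2,13, against 12.2 FPKM in WT. It was the member with the highest log2 ratio in the combined mutant, 0.57 against WT and 0.58 against brd1,2,13, short of 2-fold. HFR1 (AT1G02340, chr1:465718-467844), an atypical bHLH protein that binds PIFs and keeps them from DNA, was at 7.97 FPKM in the combined mutant, 6.92 in brm-1 and 13.2 in brd1,2,13, against 6.68 FPKM in WT. HFR1 was thus high in brd1,2,13 alone, 1.98-fold above WT (log2 ratio 0.98) and just under 2-fold, and 3.01% of expressed records were at least as far above WT there. PIL1 (AT2G46970, chr2:19295490-19297826), a PIF-like bHLH protein used as a marker of shade, was barely expressed under these long days. Its level was 0.748 FPKM in the combined mutant, 0.394 in brm-1 and 0.662 in brd1,2,13, against 0.59 FPKM in WT, too low to read an order from.

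The ELIP genes had the largest differences among the 10. ELIPs are relatives of the light-harvesting chlorophyll proteins that gather in thylakoid membranes under light stress and protect them. ELIP1 (AT3G22840, chr3:8084447-8085560) was at 59.2 FPKM in the combined mutant, 76.8 in brm-1 and 165 in brd1,2,13, against 188 FPKM in WT. The genotypes fell into a low pair with mutated BRM and a high pair with intact BRM. ELIP1 was 3.18-fold lower in the combined mutant than in WT (log2 ratio -1.67) and 2.45-fold lower in brm-1 than in WT (-1.29), and it was 0.19 lower in brd1,2,13 than in WT on the log2 scale. Against WT, 1.87% of expressed records were at least as far down in the combined mutant and 2.91% in brm-1.

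ELIP2 (AT4G14690, chr4:8418283-8419263) was at 92.7 FPKM in the combined mutant, 171 in brm-1 and 217 in brd1,2,13, against 263 FPKM in WT. Here the combined mutant stood below all the others, and the single mutants lay between it and WT. ELIP2 was 2.84-fold lower in the combined mutant than in WT (log2 ratio -1.5), 1.54-fold lower in brm-1 than in WT (-0.62) and 1.21-fold lower in brd1,2,13 than in WT (-0.27). The combined mutant was 1.84-fold below brm-1 (log2 ratio -0.88), and 0.612% of expressed records were at least as far down in that comparison. For ELIP1 the same comparison gave -0.37. The coding sequences of ELIP1 and ELIP2, of 588 and 582 bases, were identical at 78.9% of 564 aligned bases. The longest identical stretch of their transcripts was 26 bases, and a longer read could not match both transcripts exactly.

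Counted over the members, brm-1 had 1 gene at least 2-fold below WT, ELIP1, and none above, where 4.92% of all expressed records were as far below and 6.15% as far above. The median log2 ratio of the 10 was -0.41 (-0.33 over the 9 without the weakly expressed PIL1), beside a median of 0.00 over all expressed records, and 8 of the 10 lay below WT. In brd1,2,13 no member was 2-fold away from WT, where 0.963% of records lay below and 2.9% above by that much, and the median of the 10 was 0.01 (-0.00273 without PIL1). In the combined mutant 2 members, ELIP1 and ELIP2, were at least 2-fold below WT and none above, where 5.86% of records lay below and 7.32% above. The median of the 10 there was -0.33 (-0.43 without PIL1), so whether the members' median lay lower in the combined mutant or in brm-1 depends on PIL1.

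Against the single mutants, the combined mutant differed from brm-1 by 2-fold in no member, where 0.431% of records were lower and 0.601% higher, and the median was 0.01 with and without PIL1. Against brd1,2,13 it was at least 2-fold lower in 3 members, ELIP1, ELIP2 and PIF7, and higher in none, where 4.9% of records were lower and 4.97% higher. The median of the 10 was -0.59 (-0.72 without PIL1), the largest in size of the 5 comparisons, beside 0.00 over all expressed records. Without records that overlap another locus, which takes out PIF7 and HYH, the count was 2.

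**Figure D2:**
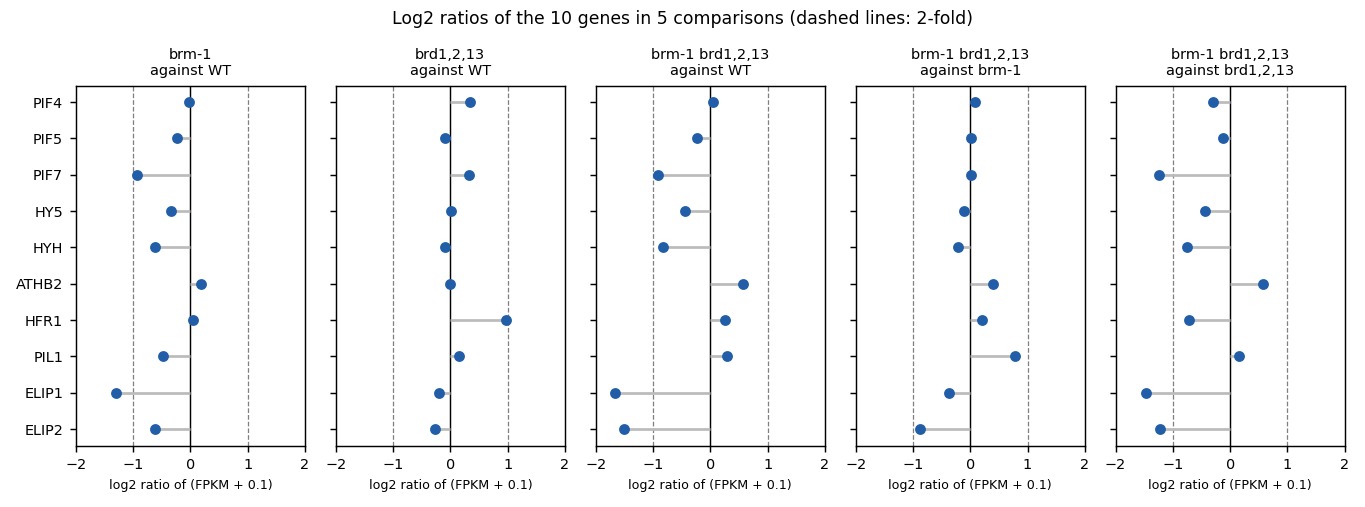
Points give the log2 ratio of (FPKM + 0.1) of each gene in the 5 comparisons, and dashed lines mark 2-fold. ELIP1 lies left of the lower line in the 3 comparisons between a genotype with mutated BRM and one with intact BRM, ELIP2 in the 2 of them that involve the combined mutant, and no point passes a line in brd1,2,13 against WT or in brm-1 brd1,2,13 against brm-1.

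The factorial design allowed each mutation's effect to be read in both backgrounds from pairs of genotypes that share no value. The BRM effect, the combined mutant against brd1,2,13 and brm-1 against WT, had the same direction in both backgrounds for 8 of the 10 members, where 77.4% of all expressed records did, and the exceptions were HFR1 and PIL1. The BRM count thus lies near its background and carries no test. The BRD effect, the combined mutant against brm-1 and brd1,2,13 against WT, was within 0.02 of 0 in a background for PIF5, PIF7, HY5 and ATHB2, and equalising the upper quartiles of the genotypes turned its sign for PIF5, PIF7 and HY5 in that background, so no count of its directions is given.

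The size of the BRD effect differed between the backgrounds by less than 1 on the log2 scale in every member. The largest gap was in HFR1, with a BRD effect of 0.20 in the brm-1 background and 0.98 in the WT background, a difference of -0.78 that 8.33% of expressed records matched or passed in either direction. PIL1, at its low level, had a difference of 0.64. ELIP2 had a BRD effect of -0.88 in the brm-1 background and -0.27 in the WT background, a difference of -0.61 that 12.2% of records reached. ATHB2 had 0.39 in the brm-1 background and -0.00273 in the WT background. In the other 6 members the difference was 0.30 or less in size.

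**Figure D3:**
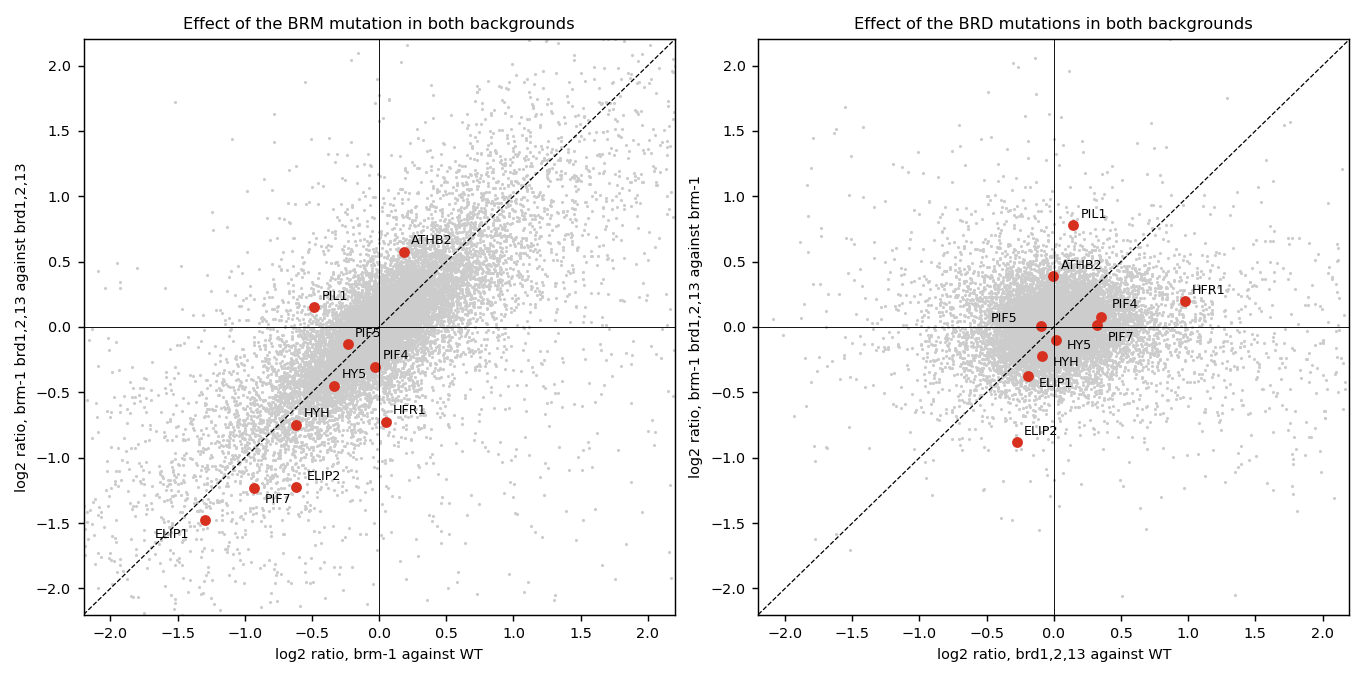
Each point sets the effect of a mutation in the mutant background (vertical, log2 ratio) against its effect in WT (horizontal, log2 ratio), for the BRM mutation on the left and the BRD mutations on the right. Red points are the 10 members, grey points all expressed records within the axes, and the dashed line marks equal effects. In the left panel ELIP1, PIF7, ELIP2 and HYH lie low on both axes, and in the right panel HFR1 lies far to the right and ELIP2 far down.

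Other genes of the pathway were read from lists that surround the members. Of all expressed records, 5.86% were at least 2-fold lower and 7.32% higher than in WT in the combined mutant. These shares were 4.92% and 6.15% in brm-1, and 0.963% and 2.9% in brd1,2,13. None of 7 photoreceptor genes counted was 2-fold away from WT in any mutant. The highest log2 ratio was that of PHYA, the photoreceptor of far-red light, at 0.92 in the combined mutant and 0.85 in brm-1. Among 9 genes of the COP1/SPA ligase, DET1 and phytochrome A transport, SPA3, a partner of COP1, was the only one past 2-fold below WT in the combined mutant (-1.67) and brm-1 (-1.15), though its locus overlaps another record. FHL, which carries phytochrome A to the nucleus, was the only one past 2-fold above WT in brd1,2,13 (1.39). Its levels were low, at 3.83 FPKM in brd1,2,13 against 1.40 FPKM in WT.

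Of 10 other PIF and related bHLH genes, 1 was at least 2-fold higher and 1 lower in the combined mutant than in WT, with a median of -0.52, and 2 were lower and none higher in brm-1, also with a median of -0.52. Among all expressed records 7.32% were higher and 5.86% lower in the combined mutant, so its counts lie near these shares. In brm-1, 4.92% of records were lower and 6.15% higher. KDR, a small HLH protein that counteracts HFR1, was at 20.6 FPKM in the combined mutant, 18.6 in brm-1 and 49.2 in brd1,2,13, against 76.4 FPKM in WT. PRE1, another growth-promoting HLH protein, had a log2 ratio to WT of -1.46 in brm-1, at low levels of 1.54 FPKM in brm-1 against 4.40 FPKM in WT. PAR1, an HLH inhibitor induced by shade, had 1.16 in the combined mutant, but it is split over 2 records with overlapping loci. Of 4 other class II HD-ZIP genes, HAT3 alone passed 2-fold, with 6.57 FPKM in the combined mutant, 5.17 in brm-1 and 12.6 in brd1,2,13, against 18.9 FPKM in WT, while the log2 ratios of its relative ATHB2 to WT were 0.57, 0.19 and -0.00273 in the same order of mutants.

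Shade-induced targets of PIFs differed in direction among themselves. Of 8, 3 were at least 2-fold higher and 1 lower than in WT both in the combined mutant and in brm-1, with medians of 0.15 and -0.14, and none passed 2-fold in brd1,2,13. In the combined mutant, 7.32% of all expressed records were as far above WT and 5.86% as far below. In brm-1 the shares were 6.15% and 4.92%. XTH15, a cell wall loosening enzyme, was at 101 FPKM in the combined mutant, 80.4 in brm-1 and 13.4 in brd1,2,13, against 9.82 FPKM in WT, with a locus that overlaps another record. YUC9, an auxin synthesis gene, had log2 ratios to WT of 1.27 in the combined mutant and 1.41 in brm-1. These rest on low levels, 1.62 FPKM in the combined mutant, 1.79 in brm-1 and 0.616 in brd1,2,13, against 0.61 FPKM in WT. ST2A, a sulfotransferase gene split over 2 records with overlapping loci, had log2 ratios to WT of 1.49 in the combined mutant and 1.57 in brm-1. IAA29, an auxin response repressor gene induced by PIF7 in shade, went the other way, with 6.5 FPKM in the combined mutant, 3.03 in brm-1 and 11.8 in brd1,2,13, against 13.7 FPKM in WT.

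Apart from the mutated genes themselves, the list of genes that modulate HY5 and the list of genes that depend on it had the lowest medians in the combined mutant and in brm-1, and not in brd1,2,13. The lists were chosen with earlier results of these data known, so their order carries no test and does not single out HY5. At least 2-fold below WT were 5.86% of all expressed records in the combined mutant and 4.92% in brm-1. Of 7 genes for B-box (BBX) proteins, which modulate HY5, 4 were at least 2-fold lower and none higher than in WT both in the combined mutant and in brm-1, with medians of -1.94 and -1.51. They were BBX30 (0.691 FPKM in the combined mutant, 1.20 in brm-1 and 17.8 in brd1,2,13, against 9.94 FPKM in WT), BBX32 (log2 ratios to WT of -2.70 in the combined mutant and -1.51 in brm-1), BBX31 (-2.43 and -1.75) and BBX25 (-1.94 and -1.52), whose locus overlaps another record. The other 3 BBX genes were less than 2-fold from WT in these mutants, and 2 of them lay above it. These were BBX20 (log2 ratios to WT of 0.53 in the combined mutant and 0.59 in brm-1) and BBX21 (0.35 and 0.16), so the list did not move in 1 direction. Of 9 UV-B and flavonoid genes that depend on HY5, 5 were at least 2-fold lower than in WT in the combined mutant and 4 in brm-1, none was higher, and the medians were -1.20 and -0.98. The flavonol synthase gene FLS1 led them, with log2 ratios to WT of -2.70 in the combined mutant and -2.09 in brm-1. F3H (-1.99 and -1.67) and CHI (-1.85 and -1.32), which act earlier in flavonoid synthesis, were also past 2-fold in these mutants, and chalcone synthase CHS (-1.44 and -0.94) in the combined mutant. SIG5 was past 2-fold in both mutants as well (-1.20 and -1.03). RUP1, RUP2, PHR1 and GPX7 of this list were less than 2-fold from WT in these mutants, and RUP1 lay above it (0.27 and 0.48). F3H, CHS, PHR1 and GPX7 lie at loci that overlap other records. In brd1,2,13 none of these BBX, UV-B and flavonoid genes was 2-fold away from WT, with medians of -0.03 and 0.04.

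Of the 6 other genes of the ELIP family and photoprotection that could be counted, none was 2-fold away from WT in any mutant, and their median log2 ratios to WT were -0.18 in the combined mutant, -0.22 in brm-1 and 0.03 in brd1,2,13. The lowest of them in the combined mutant and in brm-1 was LIL5, a gene of the ELIP family at a locus that overlaps another record. It had log2 ratios of -0.76 in the combined mutant, -0.71 in brm-1 and 0.03 in brd1,2,13. Next was PSBS, a photosystem protein that dissipates excess light, with -0.60, -0.50 and -0.05. In brm-1 the ratio of LIL5 was thus as low as that of ELIP2 (-0.62). The medians of 8 leaf mesophyll markers beside them were -0.15, -0.17 and -0.11 in the same order, and those of 7 root markers -0.82, -0.61 and -0.88. Of the root markers CASP4, at a low level of 2.05 FPKM in WT, was past 2-fold in each mutant.

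**Figure D4:**
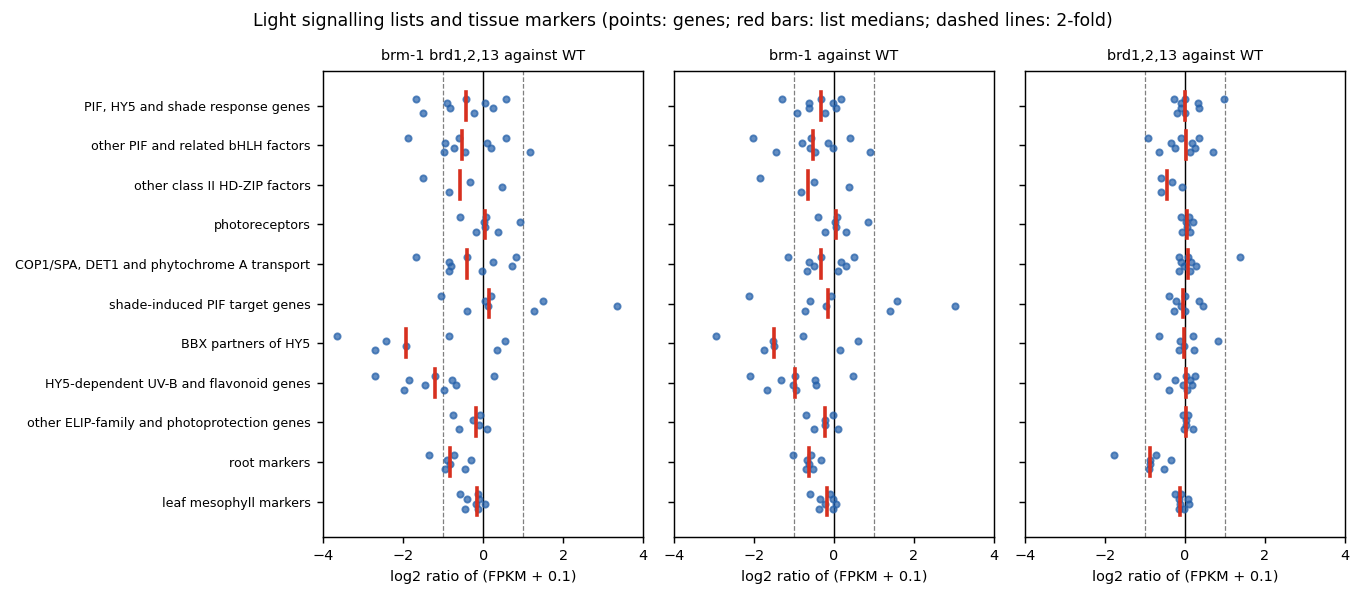
Each point is a gene of the list named at the left, placed by its log2 ratio of (FPKM + 0.1) to WT in the combined mutant, brm-1 or brd1,2,13, with list medians as red bars and 2-fold as dashed lines. Genes with a mean under 1 FPKM, such as PIL1, are left out. The BBX list (medians -1.94 and -1.51) and the UV-B and flavonoid list (-1.20 and -0.98) lie farthest left in the combined mutant and brm-1, and the root markers do so in brd1,2,13 (-0.88).

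The genes whose pattern over the mutants was most like that of the ELIP genes were sought by the root mean square difference of the 3 log2 ratios to WT, over 7121 records of 1 gene with a symbol. For ELIP1 the nearest were EC1.4 (0.041, at a locus that overlaps another record), the methionine synthase gene MS2 (0.044) and the glucosinolate gene AOP2 (0.063). EC1.4 was weakly expressed, at 0.453 FPKM in the combined mutant, 0.61 in brm-1 and 1.46 in brd1,2,13, against 1.71 FPKM in WT. Its ratios thus rest on levels near the filter of 1 FPKM. In all, 42 records lay within 0.2 of ELIP1. For ELIP2 they were ATSDI1 (0.093), which responds to sulfur shortage, MYB106 (0.115, at an overlapping locus) and the stomatal patterning gene EPF1 (0.175), and 5 records lay within 0.2. The ELIP1 pattern, low wherever BRM was mutated, thus had more close neighbours than the graded ELIP2 pattern. These distances are over 3 ratios that share the WT value and carry no test.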

How the data were processed

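RNA of 12 libraries (4 genotypes, 3 libraries each) was sequenced from 14-day-old seedlings. The submitters' processing notes list Cuffdiff 2.1.1 and Cufflinks 2.1.1 beside TopHat, with TAIR10 as the genome. The role of each tool, the strand setting and the version of TopHat are not given in the sources used here. The labels do not say whether the libraries came from separate plantings.

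The authors deposited the gene test table of Cuffdiff, with 191022 rows for 31837 records in 6 pairs of genotypes. Its levels are FPKM values, 1 per record and genotype, computed by the authors over the libraries of a genotype. These FPKM values were identical wherever the table repeats them, and they keep no read counts, so the depth per library and its precision are unknown. The table also holds the authors' own log2 fold changes, test statistics, p values, q values and calls, which were not used here.

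Log2 ratios of (FPKM + 0.1) were computed for 5 comparisons in Python 3.11.15 with pandas 2.3.3 and numpy 2.4.6, and tested on simulated data. Shares of all records cover the 17649 (55.4%) with a mean of at least 1 FPKM over the genotypes. No test was possible with 1 value per genotype. Alternatives were a pseudocount of 0 or 1, no filter or a mean of at least 5 FPKM, scaling to equal upper quartiles or medians, a fold of 1.5, and leaving out the 7465 records whose locus overlaps another.

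Coordinates are those of the table on TAIR10 with 1 added to the start. Symbols came from RefSeq (TAIR10.1), which held 29057 of 29744 records of 1 gene. A further 1944 records join several genes, and these were left out of the lists but kept for the members PIF5 and HYH. Upstream sequences and motifs were read from the RefSeq TAIR10.1 genome and its own gene starts, and coding sequences were aligned with Biopython 1.88. The 86 genes in 11 lists besides the members included the mutated genes and tissue markers. The members and the lists were chosen with earlier results of these data known. All 10 members are named. Of a list, up to 4 genes past 2-fold in a mutant against WT were named, those with the largest log2 ratios, and for each member past 2-fold against WT the 3 records nearest in pattern were named. The mutated genes, PHYA, LIL5, PSBS, BBX20, BBX21, SIG5, RUP1, RUP2, PHR1 and GPX7 are named besides, all but the mutated genes chosen after their values were seen.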

Additional observations from a re-analysis of the deposited data

Results flagged for a closer look

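BBX30, a small B-box protein gene outside the 10 members, was the only gene of the lists whose BRD effect was past 1.5-fold in opposite directions in the 2 backgrounds. Its log2 ratio was 0.84 in brd1,2,13 against WT and -0.72 in the combined mutant against brm-1. The levels were 0.691 FPKM in the combined mutant and 1.20 FPKM in brm-1, against 17.8 FPKM in brd1,2,13 and 9.94 FPKM in WT. The fall in the brm-1 background thus rests on levels of 0.691 and 1.20 FPKM, which are low, and depth is unknown. The difference was not tested, since each genotype has 1 value.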

How the results depend on the processing

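Counting from a fold of 1.5 in place of 2, over the 9 members with a mean of at least 1 FPKM, raised every count. It gave 4 members in brm-1 against WT (PIF7, HYH, ELIP1 and ELIP2, all lower) and the same count in the combined mutant against WT. It gave 1 in brd1,2,13 against WT (HFR1, higher), 1 in the combined mutant against brm-1 (ELIP2, lower) and 5 in the combined mutant against brd1,2,13 (PIF7, HYH, HFR1, ELIP1 and ELIP2, all lower). The shares of all expressed records past 1.5-fold in either direction were 23.4%, 27.9%, 10.2%, 4% and 21.6% in that order of comparisons. PIL1, left out of these counts for its low level, was 1.90-fold higher in the combined mutant than in brm-1. The other 39 recomputed counts lay within 1.5 times the reported one, and none of 350 recomputed log2 ratios and differences of single members crossed 2-fold. Rescaling the genotypes moved log2 levels by at most 0.05, and it turned the sign of ratios near 0 for PIF5 and PIF7 in the combined mutant against brm-1, HY5 in brd1,2,13 against WT and PIF4 in the combined mutant against WT. With 1 value per genotype no library could be left out. No paired analysis was possible because the columns carry no replicate numbers. Depth is unknown, so how far low levels such as those of PIL1 can be trusted cannot be given.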

Other observations

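Beyond the members, some genes of the lists had a BRD effect that differed by more than 1 on the log2 scale between the brm-1 and the WT background. They were chosen after their values were seen and carry no test. IAA29, the auxin response repressor gene, had a BRD effect of 1.07 in the brm-1 background and -0.21 in the WT background. For the growth-inhibiting HLH gene IBH1 the effect was 0.35 in the brm-1 background and -0.93 in the WT background. BBX32 had -1.20 in the brm-1 background and 0.20 in the WT background, and the Casparian strip gene CASP4 had -0.34 in the brm-1 background and -1.77 in the WT background. Both rest on low levels. BBX32 was at 1.08 FPKM in the combined mutant and 2.61 FPKM in brm-1. CASP4 was at 0.741 FPKM in the combined mutant, 0.962 in brm-1 and 0.533 in brd1,2,13, against 2.05 FPKM in WT. BRD2 transcripts were at 22.5 FPKM in brm-1, against 7.04 FPKM in WT, a log2 ratio of 1.66.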
